A study of Mus musculus with 24 samples.

Results

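The metallothioneins Mt1 and Mt2 and the metal transporters Slc30a1, Slc30a10 and Slc39a14 were followed in mouse liver as 5 of the 15160 genes in the deposited count table, picked by their gene symbol. All 5 passed the filter on low counts that kept 13336 genes for testing. Liver RNA came from 24 male mice of the C57BL/6 background, 6 in each of 4 groups. WT mice carried 2 floxed alleles of Nfe2l2, the gene for the transcription factor NRF2 (Nfe2l2 fl/fl). NRF2 KO mice carried the same floxed alleles and a Cre recombinase under the albumin promoter (Nfe2l2 fl/(Alb)). The study describes this deletion as liver-specific and holds resident macrophages to be the most likely source of residual Nfe2l2 mRNA. Both genotypes were fed, from 8 weeks of age and for 8 weeks, a diet of elemental amino acids that held methionine at 0.86% (Con) or at 0.17% (MR, methionine restriction), neither of which contained cysteine. The age label is 5 months, and livers were taken after a 4 h fast.

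Mice WT_CON_7604 and WT_MR_7612, which the study set aside as outliers of a principal component analysis, were left out of the values below unless stated, which leaves 5 WT mice and 6 NRF2 KO mice on each diet. Counts per mouse summed to between 6197291 and 22068338, and the 5 genes held between 92 (Mt2) and 7098 (Mt1) counts in a mouse. Values are TMM-scaled CPM (counts scaled to a library of common size), and the libraries read the 3′ end of each transcript, so CPM was compared between mice and not between genes. The summed CPM of 15 hepatocyte markers, scaled by library size only, ran from 94780 to 148300, and all 15 were detected. The other lists of liver cell markers were at far lower levels. On Con the deleted gene Nfe2l2 averaged 158.0 ± 93.03 CPM in WT against 281.2 ± 43.9 CPM in NRF2 KO, and on MR 100.1 ± 4.94 against 226.5 ± 15.8 CPM (SD, n = 5 WT and 6 NRF2 KO mice on each diet), and so was higher, not lower, in NRF2 KO. Where in the last exon those reads lie is not in the counts, so they do not check the excision of exon 5. The study checked it by qPCR with primers that cover the excised part of exon 5, and reported less hepatic Nfe2l2 mRNA in NRF2 KO. The library labelled WT_CON_7607 had 324 CPM of Nfe2l2, inside the NRF2 KO Con range and above every other WT mouse, and each result that uses it was also fitted without it.

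Metallothioneins are small, cysteine-rich cytosolic proteins that bind zinc and copper, and hepatocytes make them in large amounts when zinc, glucocorticoids or inflammatory signals rise. Zinc-loaded MTF1 drives them through metal response elements in their promoters. The SLC30 family (ZnT) moves zinc or manganese out of the cytosol, whereas the SLC39 family (ZIP) moves metals into it. NRF2 acts on its target genes through antioxidant response elements.

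The promoters of 4 of the 5 genes are shown because metals and NRF2 are known to act through short elements in promoters, and Slc39a14 had no entry in the promoter table used. Each is the 300 bases from 250 before to 50 after the RefSeq transcription start on GRCm38.p6, all on the plus strand. Mt1 is chr8:94178839-94179138, Mt2 is chr8:94172368-94172667, Slc30a1 is chr1:191906531-191906830 and Slc30a10 is chr1:185454598-185454897. Capitals mark matches, on either strand, to the metal response element core (TGCACNC or TGCGCNC) or the antioxidant response element core (TGACNNNGC).
Mt1: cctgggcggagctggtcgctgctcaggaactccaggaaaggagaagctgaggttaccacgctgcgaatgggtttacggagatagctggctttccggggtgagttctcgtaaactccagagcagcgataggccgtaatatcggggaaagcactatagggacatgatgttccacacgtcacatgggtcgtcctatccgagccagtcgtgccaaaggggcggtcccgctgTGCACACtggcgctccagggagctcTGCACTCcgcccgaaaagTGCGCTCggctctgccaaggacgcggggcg
Mt2: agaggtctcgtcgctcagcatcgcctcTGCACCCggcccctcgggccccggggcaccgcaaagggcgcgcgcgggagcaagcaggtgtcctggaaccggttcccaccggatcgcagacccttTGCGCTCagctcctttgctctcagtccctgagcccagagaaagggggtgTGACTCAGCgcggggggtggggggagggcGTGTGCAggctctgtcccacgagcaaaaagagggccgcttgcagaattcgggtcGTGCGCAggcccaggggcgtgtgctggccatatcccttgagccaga
Slc30a1: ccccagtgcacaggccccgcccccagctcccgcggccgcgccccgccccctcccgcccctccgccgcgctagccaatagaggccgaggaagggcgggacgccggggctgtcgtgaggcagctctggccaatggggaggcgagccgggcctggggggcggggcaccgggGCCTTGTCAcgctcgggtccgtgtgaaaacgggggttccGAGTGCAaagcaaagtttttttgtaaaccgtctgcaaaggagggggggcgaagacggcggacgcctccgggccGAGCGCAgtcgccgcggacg
Slc30a10: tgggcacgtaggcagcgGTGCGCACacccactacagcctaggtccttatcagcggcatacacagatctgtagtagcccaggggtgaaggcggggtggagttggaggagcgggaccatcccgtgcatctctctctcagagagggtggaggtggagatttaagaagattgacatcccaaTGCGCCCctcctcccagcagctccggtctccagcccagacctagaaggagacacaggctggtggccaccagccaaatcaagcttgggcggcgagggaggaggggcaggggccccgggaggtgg
The metal response element matched 3 times in Mt1, 4 times in Mt2, 2 times in Slc30a1 and 3 times in Slc30a10, where 2 of the matches are the same overlapping stretch read on both strands. Of the 32851 promoters of the table that were searched, 25.7% held at least 1 match, 7.11% at least 2, 1.97% at least 3 and 0.517% at least 4. The antioxidant response element matched 1 time in Mt2, as TGACTCAGC starting 79 bases before the start, and 1 time in Slc30a1, on the minus strand as TGACAAGGC. At least 1 such match was present in 12.4% of all promoters. Neither Mt1 nor Slc30a10 held one in these 300 bases. Bases outside the window were not searched, so the absence of a match holds for the window only. Each gene was searched at 1 start, whereas GENCODE M21 lists 3 transcripts of Mt1. The 3 metal response element matches of Mt1 began from 23 bases before to 20 after the start, toward the end of the window. A match is a description of letters and was not tested for binding.

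In the 22 mice used, MR called both metallothioneins higher in NRF2 KO mice and neither in WT mice, although the difference between these responses was itself not called. The left-out mouse WT_MR_7612 had 451.2 CPM of Mt1 and 91.02 CPM of Mt2 (scaled with all 24 mice), above every NRF2 KO MR mouse. Mt1 (ENSMUSG00000031765) and Mt2 (ENSMUSG00000031762) are neighbouring protein-coding genes on the plus strand of chromosome 8 (GENCODE M21, GRCm38), at chr8:94179082-94180327 and chr8:94172664-94173568, with 5513 bases between the end of Mt2 and the start of Mt1. In NRF2 KO mice the MR diet raised both, Mt1 4.33-fold and Mt2 2.97-fold, and Mt1 was also 2.99-fold higher in NRF2 KO MR than in WT MR. On Con neither gene was called between the genotypes.

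In WT Con mice Mt1 was at 23.4, 44.50, 46.34, 49.96 and 66.69 CPM. In WT MR mice it was at 36.05, 51.68, 63.89, 86.64 and 105.6 CPM. NRF2 KO Con mice ran from 28.37 over a median of 50.44 to 66.53 CPM. NRF2 KO MR mice ran from 89.40 over a median of 190.2 to 363.7 CPM. Every NRF2 KO MR mouse thus lay above every NRF2 KO Con mouse, as was the case for 2.62% of all genes tested, and 5 of the 6 lay above the highest WT MR mouse. The means on Con and MR were 46.18 ± 15.5 and 68.78 ± 27.7 CPM in WT (SD, n = 5 each) and 47.23 ± 13.7 and 205.0 ± 101.4 CPM in NRF2 KO (SD, n = 6 each). The SD in NRF2 KO MR was the widest of the 4 groups. Whether fewer cells of a type or less RNA per cell lies behind a lower bulk value cannot be told apart, here and below.

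For Mt1 the log2 fold change with MR in NRF2 KO was 2.11 (SE 0.34, adjusted p = 6.8e-04 by the quasi-likelihood F-test of edgeR). In WT it was 0.57 (SE 0.37, adjusted p = 0.33). The 95% confidence interval of the log2 fold change was -0.20 to 1.34 in WT and 1.39 to 2.84 in NRF2 KO. Between the genotypes the log2 fold change was 0.04 on Con (SE 0.35, adjusted p = 0.98) and 1.58 on MR (SE 0.36, adjusted p = 0.023, edgeR). The difference between the diet responses of the genotypes, tested as the interaction, was 1.54 (SE 0.50), with an unadjusted p of 0.0059 and an adjusted p of 0.43 from edgeR, and so was not called. With both left-out WT mice included, the MR value in NRF2 KO was 2.12 (adjusted p = 0.032, edgeR), while the genotype value on MR fell to 0.63 (adjusted p = 0.72, edgeR). The genotype call on MR was also lost in 5 of the 22 fits that left out 1 mouse, those without WT_MR_7611, WT_MR_7613, WT_MR_7616, KO_MR_7625 or KO_MR_7629, with values from 1.33 to 1.55 in these 5. A score of circadian clock genes (mean log2 CPM of 8 clock genes minus that of 5 clock genes of the opposite phase) ran from 3.0 to 4.48 in WT MR and from 4.57 to 4.90 in NRF2 KO MR, and with the score in the model the genotype value on MR was 1.23 (adjusted p = 0.16, edgeR). The part of the score in this value was not tested further.

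Mt2 was at 8.12, 13.67, 14.95, 18.78 and 21.06 CPM in WT Con mice and at 7.95, 10.08, 10.88, 18.23 and 22.57 CPM in WT MR mice. In NRF2 KO Con mice it ran from 7.88 over a median of 11.34 to 19.66 CPM. In NRF2 KO MR mice it ran from 13.57 over a median of 37.0 to 82.70 CPM. The WT groups overlapped throughout, whereas 5 of the 6 NRF2 KO MR mice lay above the highest NRF2 KO Con mouse and 4 of the 6 above the highest WT MR mouse. The means on Con and MR were 15.32 ± 4.99 and 13.94 ± 6.19 CPM in WT (SD, n = 5 each) and 13.33 ± 5.10 and 39.57 ± 25.1 CPM in NRF2 KO (SD, n = 6 each).

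For Mt2 the log2 fold change with MR was 1.57 in NRF2 KO (SE 0.39, adjusted p = 0.013, edgeR) and -0.15 in WT (SE 0.44, adjusted p = 0.87, 95% confidence interval -1.07 to 0.77). The genotype values were -0.20 on Con (SE 0.42, adjusted p = 0.88) and 1.52 on MR (SE 0.42, adjusted p = 0.069, edgeR), the latter called by DESeq2 (1.51, adjusted p = 0.012). The interaction was 1.72 (SE 0.59, unadjusted p = 0.0088, adjusted p = 0.47, edgeR). Over all 24 mice the MR value in NRF2 KO was 1.58 with an adjusted p of 0.18 from edgeR. The antisense gene Gm45774 overlaps Mt2 on the opposite strand, and the sources used here do not say whether counting used the strand.

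**Figure D1:**
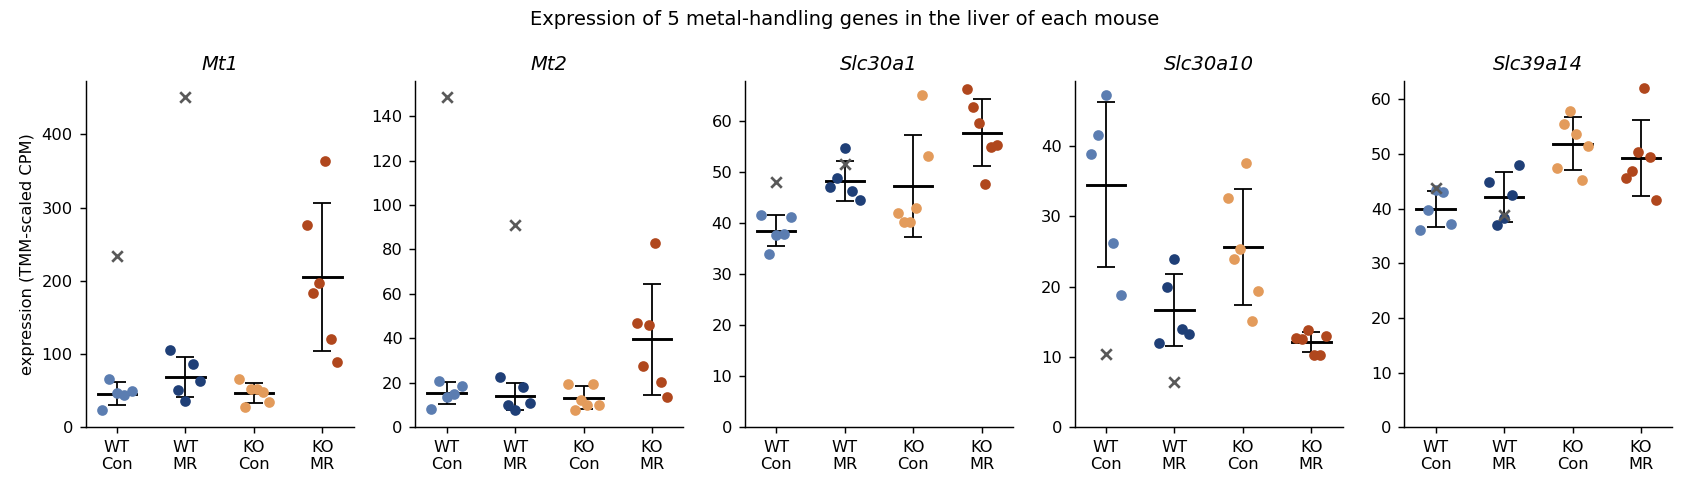
Expression of each of the 5 genes in CPM (vertical axes, each from 0) in the 4 groups, with 1 point per mouse, the mean as a thick line and the SD as bars. Crosses are the 2 left-out mice, scaled together with all 24. Mt1 in NRF2 KO MR runs from 89.40 to 363.7 CPM, above all NRF2 KO Con mice, and both crosses for Mt1 and Mt2 lie above the used mice of their groups.

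Mt1 and Mt2 moved together from mouse to mouse. As deviations of log2 CPM from the group means, Pearson's r was 0.929 and Spearman's rho 0.901 over 22 mice (two-sided permutation p = 1.0e-05 for each, the smallest that 100000 resamples can give, 1 relation tested). Without the 2 mice farthest from the median of Mt1, KO_MR_7629 and KO_MR_7625, r was 0.903 and rho 0.88. Across the last 300 bases of their transcripts no stretch of 50 bases was shared by Mt1 or Mt2 with any other gene, nor by the other 3 members.

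The share of Mt1 in the summed Mt1 and Mt2 counts, given as a description with no test, was 75.0 ± 1.73% in WT Con (SD, n = 5) and 83.21 ± 1.41% in WT MR (n = 5). Its lowest WT MR value, 81.93%, lay above its highest WT Con value, 77.22%. In NRF2 KO it was 78.11 ± 4.24% on Con and 84.53 ± 2.63% on MR (SD, n = 6 each), with ranges of 71.24% to 83.93% and 80.98% to 86.85% that overlapped. The mean Mt1 share was higher on MR in both genotypes.

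**Figure D2:**
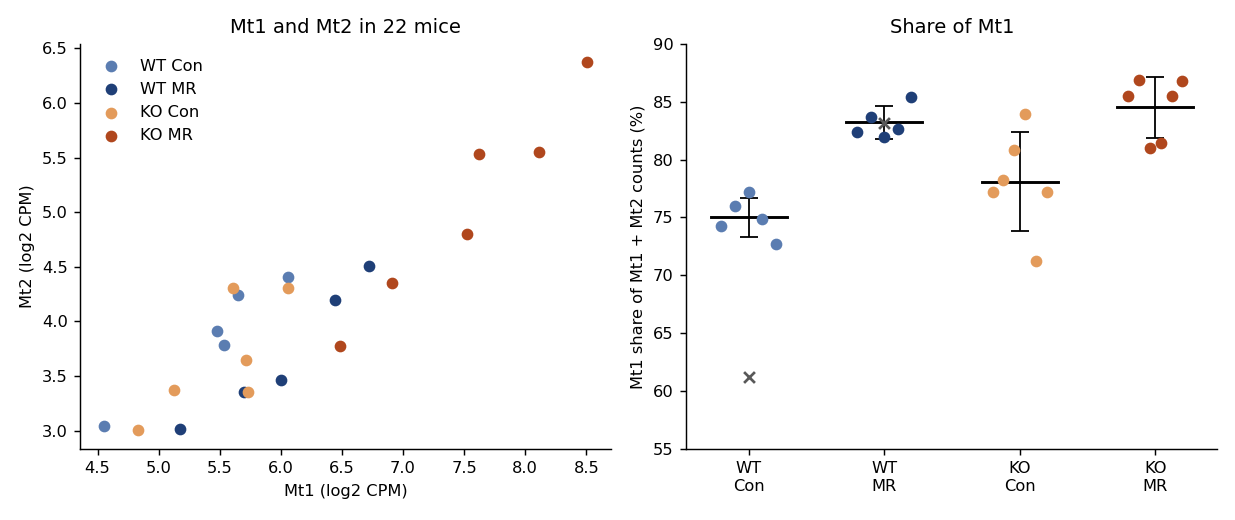
Left, Mt2 against Mt1 in log2 CPM, 1 point per mouse for 22 mice, coloured by group. Right, the Mt1 share of Mt1 plus Mt2 counts in percent (axis from 55 to 90), with means, SD bars and crosses for the 2 left-out mice. Mt2 rises with Mt1 over the 22 mice (r = 0.914), with the NRF2 KO MR mice toward the upper end, and the WT MR shares (81.93% to 85.45%) lie above the WT Con shares (72.68% to 77.22%).

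Slc30a1 encodes ZnT1, which exports zinc across the plasma membrane and is itself a target of MTF1. It lies at chr1:191906767-191913247 on the plus strand (ENSMUSG00000037434), and 1700034H15Rik overlaps it on the opposite strand. It was at 34.07, 37.73, 38, 41.14 and 41.60 CPM in WT Con mice and at 44.47, 46.26, 47.14, 48.88 and 54.81 CPM in WT MR mice. All 5 WT MR mice lay above all WT Con mice, as for 5.32% of genes tested. In NRF2 KO it ran from 40.29 over a median of 42.54 to 65.11 CPM on Con and from 47.65 over 57.51 to 66.27 CPM on MR. Those groups overlapped, with 1 of the 6 MR mice above the highest Con mouse but all 6 above the Con mean of 47.34 ± 9.96 CPM (SD, n = 6).

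For Slc30a1 the log2 fold change with MR was 0.33 in WT (SE 0.11, adjusted p = 0.057, edgeR) and 0.29 in NRF2 KO (SE 0.10, adjusted p = 0.064, edgeR), so neither was called. DESeq2 put both under the threshold, at 0.33 (adjusted p = 0.047) in WT and 0.30 (adjusted p = 0.048) in NRF2 KO. Between the genotypes it was 0.29 on Con (adjusted p = 0.19) and 0.26 on MR (adjusted p = 0.27, edgeR), and the interaction was -0.04 (SE 0.15). Whether the NRF2 KO value passed depended on single mice, and without KO_CON_7622, the highest Con mouse, it was 0.40 (adjusted p = 0.0035, edgeR).

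Slc30a10 encodes ZnT10, known mainly as an exporter of manganese from hepatocytes and enterocytes. It lies at chr1:185454848-185468762 on the plus strand (ENSMUSG00000026614), and the start of its locus overlaps Gm2061 on the opposite strand. WT Con mice had 18.82, 26.15, 38.82, 41.59 and 47.18 CPM. WT MR mice had 11.95, 13.30, 14.01, 20 and 23.95 CPM. In WT, 3 of the 5 MR mice lay below the lowest Con mouse and all 5 lay below the Con mean.

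NRF2 KO Con mice had Slc30a10 values from 15.17 over a median of 24.59 to 37.58 CPM. NRF2 KO MR mice stayed within 10.34 to 13.85 CPM around a median of 12.66. All 6 lay below all NRF2 KO Con mice, as for 2.83% of genes tested. The means fell from 34.51 ± 11.7 to 16.64 ± 5.12 CPM in WT (SD, n = 5 each) and from 25.65 ± 8.29 to 12.14 ± 1.46 CPM in NRF2 KO (SD, n = 6 each).

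With MR Slc30a10 fell to 0.486 of its Con level in WT (log2 fold change -1.04, SE 0.26, adjusted p = 0.010, edgeR) and to 0.470 in NRF2 KO (-1.09, SE 0.24, adjusted p = 0.0049, edgeR). The interaction was -0.05, with a 95% confidence interval from -0.77 to 0.67. The genotype values were -0.42 on Con (adjusted p = 0.45) and -0.47 on MR (adjusted p = 0.44, edgeR). Both diet calls held in all 22 fits that left out 1 mouse, that without the library labelled WT_CON_7607 included (-1.12 in WT, adjusted p = 0.011, edgeR), and over all 24 mice. The clock score ran from 1.32 to 3.4 in WT Con and from 3.0 to 4.48 in WT MR, and with that score in the model the WT value was -0.52 (adjusted p = 0.41, edgeR), while the NRF2 KO value was -0.99 (adjusted p = 0.0072).

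Slc39a14 encodes ZIP14, which carries zinc, manganese and non-transferrin-bound iron into hepatocytes. It lies on the minus strand at chr14:70303469-70351425 (ENSMUSG00000022094). It was at 36.12, 37.23, 39.77, 42.99 and 43.37 CPM in WT Con mice and at 37.03, 38.21, 42.49, 44.88 and 48.01 CPM in WT MR mice. In NRF2 KO it ran from 45.22 over a median of 52.58 to 57.81 CPM on Con and from 41.51 over 48.17 to 62.00 CPM on MR. On Con all 6 NRF2 KO mice lay above all WT mice, as for 0.945% of genes tested, and on MR 3 of 6 did.

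For Slc39a14 the log2 fold change between the genotypes was 0.38 on Con (SE 0.09, adjusted p = 0.030, edgeR), a 1.3-fold difference of 51.84 ± 4.81 CPM (SD, n = 6) against 39.89 ± 3.28 (n = 5). On MR it was 0.23 (SE 0.09, adjusted p = 0.25). MR changed it in neither genotype past the threshold, with 0.08 for WT (SE 0.10, adjusted p = 0.65) and -0.07 for NRF2 KO (SE 0.09, adjusted p = 0.65, edgeR). Leaving out 1 mouse ended this genotype call in 7 of 22 fits, those without WT_CON_7602, WT_CON_7603, WT_CON_7608, KO_CON_7618, KO_CON_7620, KO_CON_7621 or KO_CON_7623, and with the library labelled WT_CON_7607 left out it was 0.41, still called (adjusted p = 0.029, edgeR). The clock score of NRF2 KO Con mice, 4.21 to 4.70, did not overlap that of WT Con mice, 1.32 to 3.4. With the score in the model the value was 0.23 (adjusted p = 0.59, edgeR).

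**Figure D3:**
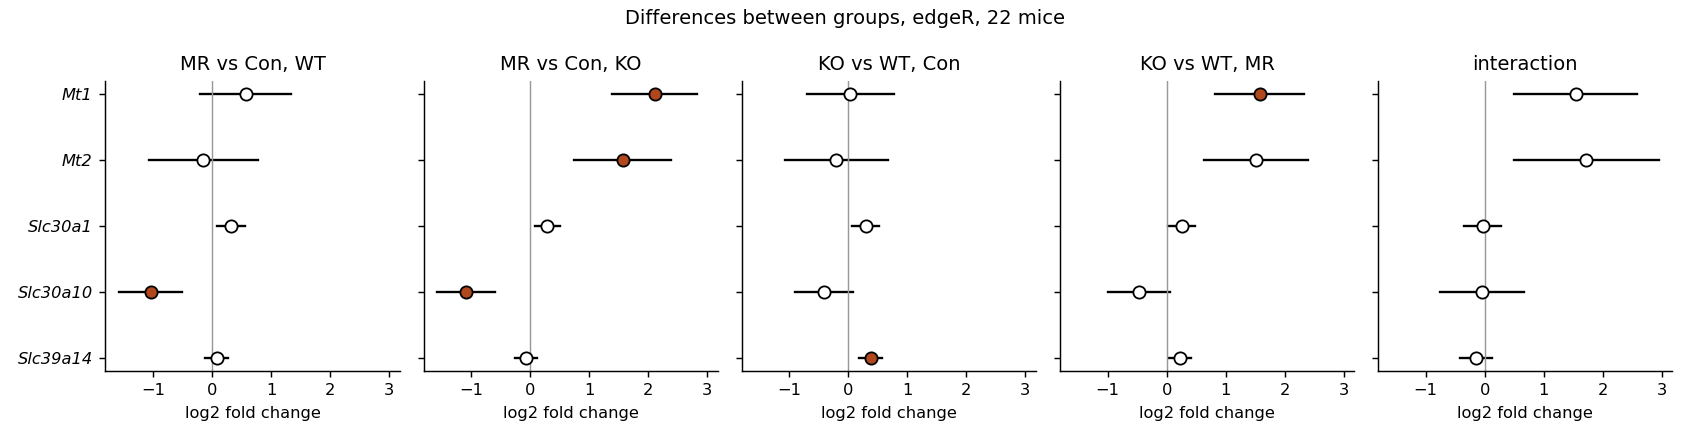
Log2 fold change (horizontal axis) of the 5 genes in the 4 comparisons and the interaction, from edgeR on 22 mice. Bars are 95% confidence intervals and filled points have an adjusted p under 0.05. Mt1 and Mt2 are filled for MR in NRF2 KO (2.11 and 1.57), Slc30a10 for MR in both genotypes (-1.04 and -1.09), and no gene is filled in the interaction.

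Over the 5 genes, MR called 1 lower in WT, where 13.8% of all genes tested were called (6.91% higher and 6.91% lower). In NRF2 KO it called 2 higher and 1 lower, where 12.6% of all genes were called (6.23% higher and 6.34% lower). The genotype called 1 higher on Con, against 2.07% of all genes called and 0.802% called higher. On MR it called 1 higher, against 1.93% called and 0.555% called higher. With 5 genes, 1 call in WT is close to the share of all genes. The interaction called 0 of the 5 by edgeR and 0 by DESeq2, against 0.045% of all genes. At an unadjusted p under 0.05, 2 of the 5 passed the interaction by edgeR, the 2 metallothioneins, against 7.56% of all genes. These 2 had r of 0.929 within the groups, so they are not independent counts, here or among the MR calls in NRF2 KO.

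Of 10 SLC30 genes listed, 8 were in the table and tested, and MR called 1 lower and 0 higher in each genotype, Slc30a10 each time. The median log2 fold change of the 8 was -0.003 in WT and 0.005 in NRF2 KO, against -0.006 and -0.004 over all genes. The vesicular transporters Slc30a5, Slc30a6 and Slc30a7, which supply the secretory pathway, had values between -0.05 and 0.14 in both genotypes, with no call.

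Of 14 SLC39 genes, 12 were in the table and 11 were tested, Slc39a5 being removed for low counts. MR called 2 higher (Slc39a4 and Slc39a13) and 1 lower (Slc39a3) in WT, and 1 higher (Slc39a4) and 2 lower (Slc39a11 and Slc39a9) in NRF2 KO, thus 3 of 11 in each, where 13.8% (WT) and 12.6% (NRF2 KO) of all genes were called. Their medians were -0.124 and -0.073, against -0.006 and -0.004 over all genes. Slc39a14 was the 1 gene of either family called between the genotypes by edgeR, and also by DESeq2.

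Slc39a4 encodes ZIP4, the zinc importer best known from the apical membrane of enterocytes, and lies at chr15:76612383-76617384 on the minus strand. It was at 10.04, 15.97, 17.01, 27.23 and 29.17 CPM in WT Con mice and at 58.23, 64.19, 66.05, 67.26 and 77.97 CPM in WT MR mice. In NRF2 KO it ran from 6.68 over a median of 19.21 to 28.67 CPM on Con and from 66.02 over 71.08 to 96.60 CPM on MR. In both genotypes every MR mouse lay above every Con mouse, as for 5.32% of genes in WT and 2.62% in NRF2 KO. The log2 fold change was 1.74 in WT (SE 0.31, adjusted p = 0.0012, edgeR) and 2.02 in NRF2 KO (SE 0.29, adjusted p = 2.1e-04, edgeR), with an interaction of 0.28 (adjusted p = 0.92). Both calls held in all 22 fits that left out 1 mouse.

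The other calls in the SLC39 family were small. Slc39a13, a transporter of intracellular vesicles, had 0.38 in WT (adjusted p = 0.019, edgeR), lost over all 24 mice (0.28, adjusted p = 0.073). Slc39a3 had -0.35 in WT (adjusted p = 0.048, edgeR), lost in 14 of the 22 fits that left out 1 mouse. In NRF2 KO, Slc39a11 had -0.34 (adjusted p = 0.0074, edgeR), and Slc39a9, a transporter of the Golgi, had -0.28 (adjusted p = 0.038, edgeR), lost in 10 of the 22 such fits. The calls of Slc39a3, Slc39a11 and Slc39a9 were also lost, with the direction kept, when counts were scaled by library size only (-0.26, -0.19 and -0.12).

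**Figure D4:**
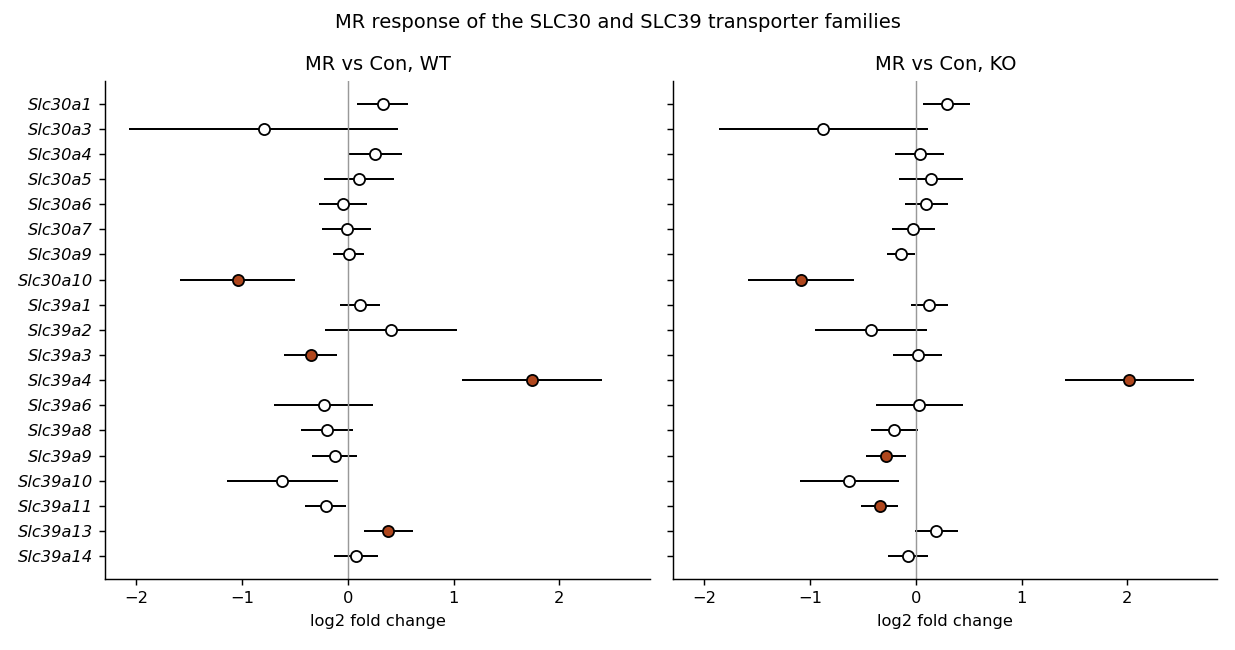
Log2 fold change with MR (horizontal axis) of the 8 SLC30 and 11 SLC39 genes tested, in WT on the left and NRF2 KO on the right, with 95% confidence intervals and filled points for an adjusted p under 0.05. Slc39a4 (1.74 and 2.02) and Slc30a10 (-1.04 and -1.09) lie farthest from 0 among the filled points in both genotypes.

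The zinc-sensing factor Mtf1 was at 18.73 ± 1.90 CPM on Con and 18.85 ± 1.78 CPM on MR in WT (SD, n = 5 each), and at 22.11 ± 2.00 and 21.99 ± 2.81 CPM in NRF2 KO (SD, n = 6 each). MR gave log2 fold changes of 0.01 (WT, adjusted p = 0.97) and -0.01 (NRF2 KO, adjusted p = 0.98, edgeR), and the genotype gave 0.24 on Con (adjusted p = 0.23) and 0.22 on MR (adjusted p = 0.28). With the iron hormone gene Hamp and the hypoxia factor gene Hif1a, 0 of 3 metal regulators were called in any comparison by edgeR or by DESeq2. At an unadjusted p under 0.05, edgeR passed 1 of the 3 for MR in each genotype and 2 of the 3 between the genotypes on each diet, Mtf1 among them on both.

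Acute phase genes are liver genes that respond to inflammatory signals, as the metallothioneins do. Of 20 tested, MR called 8 lower and 1 higher in each genotype and 11 were not called, where 6.91% (WT) and 6.34% (NRF2 KO) of all genes were called lower, with medians of -0.367 in WT and -0.197 in NRF2 KO against -0.006 and -0.004 over all genes. The serum amyloid genes Saa1 (-2.13 for WT and -2.10 for NRF2 KO, with adjusted p of 0.0059 and 0.0033) and Saa2 (-2.84 and -2.68, adjusted p = 0.0056 and 0.0037, edgeR) fell in both genotypes. The amyloid P gene Apcs rose in both (1.25 and 1.22, adjusted p = 0.027 and 0.020, edgeR). Between the genotypes edgeR called 0 of the 20 on either diet, with 4 on Con and 7 on MR at an unadjusted p under 0.05, and DESeq2 called 0 on Con and 2 on MR (Fgb and Itih4).

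Of 15 glucocorticoid target genes, MR called 4 higher and 1 lower in WT, where 13.8% of all genes were called (6.91% higher and 6.91% lower). In NRF2 KO it called 0 higher and 1 lower, where 12.6% of all genes were called (6.23% higher and 6.34% lower). The part of these 15 genes in the values of the metallothioneins was not tested. The genes called higher in WT were Per1 (1.54), Tsc22d3 (0.78), Fkbp5 (0.66) and Cebpd (0.59), and Lcn2 was lower (-2.34), with adjusted p of 0.0032, 0.040, 0.036, 0.046 and 0.012 from edgeR. Lcn2 is also on the list of acute phase genes and is counted in both lists. In NRF2 KO the lower one was Dusp1 (-0.68, adjusted p = 0.039, edgeR). Between the genotypes Per1 (1.83) and Tsc22d3 (1.02) were called higher on Con (adjusted p = 0.0024 and 0.026, edgeR) and Zbtb16 (1.51, adjusted p = 0.022, edgeR) on MR. Per1 is also a clock gene, and the clock score differed between these groups as given above.

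Of 11 copper-handling genes, MR called 1 in each genotype, a share no higher than the 13.8% (WT) and 12.6% (NRF2 KO) of all genes called. The copper chaperone gene Ccs was higher in WT (0.23, adjusted p = 0.037, edgeR) and the cytochrome oxidase assembly gene Sco1 lower in NRF2 KO (-0.28, adjusted p = 0.040, edgeR). Leaving out 1 mouse ended the Ccs call in 7 of 22 fits and the Sco1 call in 9 of 22.

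Markers of other liver cells moved with the diet. MR called 7 of 11 Kupffer cell and macrophage markers lower in WT and 4 of 11 in NRF2 KO, 5 of 9 and 4 of 9 stellate cell markers, and 4 of 5 and 1 of 5 bile duct markers, with 0 higher in these lists. Over all genes 6.91% were called lower in WT and 6.34% in NRF2 KO. Marker sums are CPM scaled by library size only, without TMM. That scaling moved the median log2 fold change of all genes to 0.15 for MR in NRF2 KO. Sums of the 2 diets are therefore not on the scale of the calls. The summed Kupffer cell and macrophage markers ran from 396.6 to 617.5 CPM in NRF2 KO Con and from 413.2 to 528.5 CPM in NRF2 KO MR. Stellate cell markers ran from 449.7 to 514.9 and from 384.7 to 560.2 CPM, and bile duct markers from 29.9 to 50.53 and from 21.79 to 28.7 CPM, in the same 2 groups. Endothelial markers gave 1 higher in NRF2 KO, with sums of 250.2 to 321.8 CPM on Con and 317.3 to 357.9 CPM on MR. Hepatocyte markers gave 4 of 15 lower in NRF2 KO, with sums of 122300 to 148300 CPM on Con and 115800 to 132000 CPM on MR. In WT they gave 1 of 15 lower, with sums of 106900 to 129000 CPM on Con and 94780 to 106200 CPM on MR. On MR the hepatocyte sums of the 2 genotypes thus did not overlap, whereas those of every other list did. Between the genotypes on MR, 1 of the 15 was called higher and 1 lower. Of 11 pancreatic acinar markers 8 were in the table, and they summed to between 19.01 and 88.72 CPM in the 22 mice. Their part in the values of the 5 genes was not tested.

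Genes whose log2 CPM followed each member most closely over the 22 mice were ranked by Pearson's r among 11996 genes, as a description with no test. The mice share diet and genotype, so r within the groups, from deviations from the group means, is given beside it. After Mt2 (0.914, within groups 0.929), Mt1 was followed by Nipal1, a magnesium transporter gene (0.857, within groups 0.697), and the cytochrome P450 gene Cyp2a22 (0.844, within groups 0.753). Mt2 was followed, after Mt1, by Cyp3a44 (0.768, within groups 0.701) and Mfsd12 (0.745, within groups 0.561), and both P450 genes have close relatives that could share reads. Slc30a10 had the closest company in Tmie (0.963, within groups 0.898) and Agpat2, an enzyme of phosphatidic acid synthesis (0.939, within groups 0.844), followed by Pdcd4 (0.895, within groups 0.826).

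Slc30a1 was followed by Naa16 (0.901, within groups 0.871), Brpf3 (0.878, within groups 0.708) and B4galt5 (0.869, within groups 0.738). Slc39a14 was followed by the proteasome subunit gene Psmd13 (0.826, within groups 0.727), Gtf3a (0.796, within groups 0.704) and Stk35 (0.766, within groups 0.463). Among pairs of the 5 genes themselves, Slc30a1 and Slc39a14 had the lowest r within the groups, -0.624, with 0.077 over all mice. This pair was picked for its value and was not tested. KO_CON_7622 had the highest Slc30a1 and the lowest Slc39a14 of its group, and KO_MR_7629 the reverse in its own.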

How the data were processed

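The raw count values are read counts per gene deposited by the authors, who made QuantSeq 3′ libraries and mapped and counted the reads with the kit maker's pipeline on mouse genome GRCm38 (mm10). The deposited normalized signal values equal those counts over 1 DESeq2 size factor per mouse, and gave the gene symbols and 1 alternative. The labels and the study's methods state different read lengths.

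Counts were tested in R 4.3.3 with edgeR 4.0.16: TMM scaling, filter by expression, robust quasi-likelihood F-tests, 1 mean per group over 22 mice, and Benjamini-Hochberg adjustment over 13336 genes (1824 removed). Genes with an adjusted p under 0.05 were called. The prior count for log2 CPM was 2. Each library is 1 mouse, and no batch is labelled. The members, lists and tests were chosen with earlier results of these data known. Besides the 5 members, named genes are the SLC30 and SLC39 families, Mtf1, up to 4 called genes per list and comparison by size of change, and the 3 genes most like each member. Apcs, Cebpd, Fgb, Itih4, Hamp and Hif1a were named after their values were seen. Alternatives were DESeq2 1.42.0, its size factors, library size, 2 other filters, limma 3.58.1 on the normalized values, only the groups compared, all 24 mice, a clock score as covariate, and leaving out each mouse. Models were tested on simulated data. Positions are from GENCODE M21 and promoters from RefSeq.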

Additional observations from a re-analysis of the deposited data

Results flagged for a closer look

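The 2 mice left out of the comparisons had metallothionein levels above every control mouse used. Scaled together with all 24 mice, Mt1 was at 234.5 CPM in WT_CON_7604 and at 451.2 CPM in WT_MR_7612, where the highest of the 5 WT Con mice used had 67.4 CPM. Mt2 was at 148.7 and 91.02 CPM in the same 2 mice, against 21.3 CPM in the highest control mouse used. WT_MR_7612 also lay above the highest NRF2 KO MR mouse, at 363.7 CPM of Mt1 and 82.70 CPM of Mt2 as scaled with the 22 mice. Slc30a1 was at 48.01 and 51.68 CPM in the 2 left-out mice, against 41.9 CPM in the highest control mouse used. Slc30a10 was at 10.47 and 6.418 CPM, below the lowest control mouse used (18.99 CPM), and Slc39a14 at 43.68 and 38.8 CPM was inside the control range. The Mt1 share of Mt1 plus Mt2 counts was 61.19% in WT_CON_7604, below all 22 mice used, and 83.21% in WT_MR_7612, inside the WT MR range. Each is a single mouse, so these values have no replicate. Of the 20 groups of 5 or 6 mice (5 genes in 4 groups) examined for a single mouse far from the rest, 0 had one. The 2 mice above had been left out beforehand. The 20 also share the same 22 mice, so no chance rate is set beside this count. A count of 0 does not mean that no single mouse moved a result. Without KO_CON_7622, Slc30a1 with MR in NRF2 KO was 0.40 and called, against 0.29 and not called with that mouse.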

How the results depend on the processing

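Of 220 values of the 5 genes under alternatives other than leaving out a mouse, 195 kept their direction and side of the threshold, 8 lost the call, 8 gained one and 9 changed sign. The causes were not tested. Over all 24 mice, Mt1 between the genotypes was -0.71 on Con and 0.63 on MR, Mt2 with MR in NRF2 KO was 1.58 (adjusted p = 0.18), and the Slc30a1 interaction was 0.0118. With the clock score, Mt1 was -0.27 with MR in WT, -1.03 between the genotypes on Con and 1.23 on MR (adjusted p = 0.16). Slc30a10 was then -0.52 with MR in WT and 0.32 between the genotypes on Con, and Slc39a14 was -0.0307 with MR in WT and 0.23 between the genotypes on Con. With library size as the only scaling, which moved the median of all genes to 0.15 for MR in NRF2 KO, Slc30a1 was called with MR in WT (0.42) and NRF2 KO (0.44) with an interaction of 0.0238, and Slc39a14 was 0.0884 with MR in NRF2 KO and 0.35 between the genotypes on Con (adjusted p = 0.12). Fits of only the groups compared gave 1.58 for Mt1 on MR (adjusted p = 0.073), 0.38 for Slc39a14 on Con (adjusted p = 0.057) and a called 0.32 for Slc30a1 in WT. DESeq2 called Mt2 between the genotypes on MR (1.51) and Slc30a1 in both genotypes (0.33 and 0.30), as did limma for Slc30a1 (0.33 and 0.31), which gave a Slc30a10 interaction of 0.0072.

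Without 1 mouse each, Mt1 between the genotypes ran from -0.14 to 0.19 on Con and from 1.33 to 1.79 on MR. Mt2 on MR ran from 1.16 to 1.79, called only without KO_MR_7632. Slc30a1 with MR ran from 0.28 to 0.36 in WT, called without KO_CON_7622 or KO_MR_7629, and from 0.25 to 0.40 in NRF2 KO, called without these or KO_CON_7623. Its interaction ran from -0.0801 to 0.0738, that of Slc30a10 from -0.18 to 0.11, and Slc39a14 between the genotypes on Con from 0.34 to 0.41. Mt1 and Mt2 with MR in NRF2 KO and Slc30a10 with MR in both genotypes kept their calls in all 22 such fits, and r of Mt1 with Mt2 ran from 0.911 to 0.951.

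Genes called numbered 1843 for MR in WT (985 with the clock score) and 1677 for MR in NRF2 KO (2785 by library size only). By library size 86.1% of the calls for MR in NRF2 KO were higher, against 49.6%, and 73.2% in WT, against 50.0%, with 27.6% of the genotype calls on Con, against 38.8%, and 28.6% of the interaction calls, against 50.0%. The genotype called 276 on Con (449 by DESeq2, 99 with only the groups compared, 5 with the clock score, 181 without WT_CON_7603 to 314 without the library labelled WT_CON_7607) and 258 on MR (484, 600 and 145 by the same alternatives). The interaction called 6 (33 by DESeq2, and 3 to 12 without 1 mouse). Counts were lowest for Mt2 and Slc30a10, at 92 and 93 in their lowest mice, and the part of depth in their spread was not tested. No paired analysis was possible because the columns share no replicate number between groups.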
